A study of Mus musculus with 4 samples.

Results

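The microRNAs (miRNAs) miR-23, miR-27 and miR-24 are made from paralogous gene clusters, and their levels were read in whole blood of mice given cadmium and of controls. The 6 hairpin genes are mmu-mir-23a, mmu-mir-27a and mmu-mir-24-2 on chromosome 8 (the a cluster) and mmu-mir-23b, mmu-mir-27b and mmu-mir-24-1 on chromosome 13 (the b cluster). They were taken by name from the lists of mature reads, which held 374 annotated miRNA loci in at least 1 library. All 6 were listed in all 4 libraries, as were 289 loci in total. Because both miR-24 genes carry the same reads, the 6 genes give at most 5 separate measurements. In every library but cadmium 2, miR-23a and miR-23b also had the same counted sequence, and may hold the same reads there. All mice were of the inbred Balb/c strain and 180 days old, with free access to food and water. Controls are 2 libraries, and a further 2 are from mice whose drinking water held cadmium, a toxic metal. The sources used here give neither the dose and length of exposure nor whether a group's libraries are separate animals. The p-values therefore cover the spread of these 4 libraries, which may be technical.

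A miRNA is cut from a hairpin in a longer primary transcript and guides repression of messenger RNAs, mainly through its seed, bases 2 to 8 from its 5′ end. Hairpins of a cluster are made as a single primary transcript, after which each miRNA can be processed and retained to a different extent. The a and b clusters arose by duplication and keep the order 23, 27, 24. miR-23 is known to repress glutaminase, miR-27 to repress the adipocyte regulator Pparg and the blood cell regulator Runx1, and miR-24 to repress the histone variant H2AX in differentiated blood cells. The a cluster is known for its effect on the choice between myeloid and lymphoid fates, and the b cluster for its expression in blood vessels.

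The counted sequences are shown because they set what can be told apart. Capitals mark the seed, and the reading is 5′ to 3′ as RNA, from the loci listed in control 1 and the RefSeq hairpins of build GRCm38 (mm10).
miR-23a, control 1: aUCACAUUgccagggauu
miR-23a, cadmium 2: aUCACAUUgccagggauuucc
miR-23b, all 4 libraries: aUCACAUUgccagggauu
miR-27a: uUCACAGUggcuaaguuccg
miR-27b: uUCACAGUggcuaaguucug
miR-24, both genes: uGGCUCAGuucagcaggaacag
The sisters miR-23a and miR-23b share a seed, as do miR-27a and miR-27b, and no other annotated locus listed in control 1 had any of the 3 seeds at bases 2 to 8. Over the 21 bases of the RefSeq miR-23a, counted from 1 at the 5′ end, miR-23a and miR-23b differ only by U19A. Over the 21 bases of miR-27a, miR-27a and miR-27b differ only by C19U. The 20-base windows of miR-27a and miR-27b reach past position 19, so the listed sequences of these sisters differ. An 18-base miR-23 window ends before that position, so the listed sequences of miR-23a and miR-23b are the same letters.

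The 2 clusters lie in different surroundings. The a cluster spans 404 bases of chromosome 8 (84208518 to 84208921, plus strand) and overlaps no gene other than miRNAs and the first bases of the lincRNA Gm26532. Its counted windows lie outside any other annotated gene, at 84208563 to 84208583 for miR-23a in cadmium 2, 84208727 to 84208746 for miR-27a and 84208875 to 84208896 for miR-24-2. The nearest protein-coding gene, Zswim4, lies 1782 bases past the miR-24-2 window on the other strand. The b cluster spans 792 bases of chromosome 13 (63300484 to 63301275, plus strand) within 2010111I01Rik, the aminopeptidase O gene, and opposite an intron of the DNA repair gene Fancc. The miR-23b window (63300529 to 63300546) is intronic. The miR-27b window (63300760 to 63300779) and the miR-24-1 window (63301251 to 63301272) fall in exons of transcripts that GENCODE release M21 marks for nonsense-mediated decay or as processed transcripts.

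**Figure D1:**
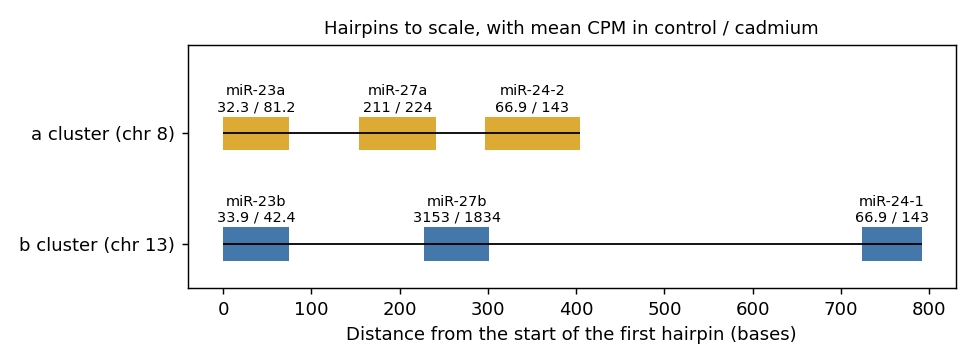
Map of both clusters, with distance from the start of the first hairpin in bases on the x axis and each hairpin drawn to scale as a box; the numbers above a box are the mean CPM in control and in cadmium blood. The b cluster is longer (792 against 404 bases), and within it miR-27b stands far above its neighbours.

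Counts of annotated loci summed to between 24622926 and 35244119 per control library and between 14383852 and 15565712 per cadmium library, so the controls were deeper. Levels are given as CPM, counts scaled to a common library total with edgeR's TMM factors. Gene copies with the same listed sequence, such as both miR-24 genes, each add their count to these totals. The test, edgeR's quasi-likelihood F test with Benjamini-Hochberg adjustment and a threshold of 0.05, ran on 276 annotated loci. Of these, 40 loci (14.5%) passed, 22 (7.97%) higher and 18 (6.52%) lower with cadmium, and 193 (69.9%) had groups that did not overlap. Of the 6 members, 3 passed, namely both miR-24 genes on the same reads, which were higher, and miR-27b, which was lower. The groups did not overlap for 5 of the 6, a share to be read against the 69.9% over all loci. The median log2 fold change was 0.71 over the 6 members, a value set by counting miR-24 for both genes, and 0.08 over all loci tested. Scaling shifts all values together: the median of all loci was -0.01 with DESeq2 size factors, 0.23 with totals that leave out loci over 10% of the counts, 0.32 with upper quartile factors and 0.38 with total counts. The calls then split into 21 higher and 27 lower, 39 and 12, 48 and 9, and 57 and 8. By construction, scaling hardly changes a value relative to that median, so such values, given below, do not test robustness to scaling.

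**Figure D2:**
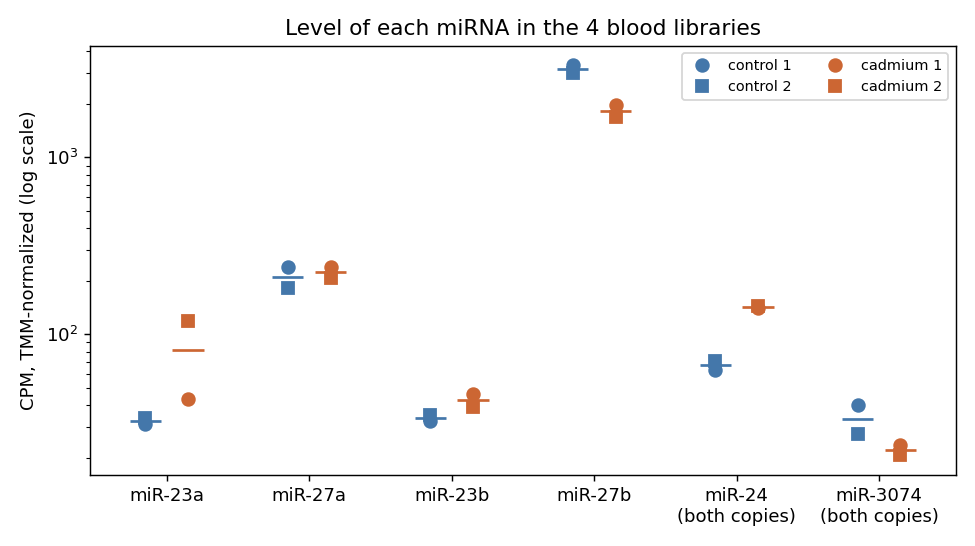
CPM after TMM scaling, on a log axis, of each miRNA in each of the 4 libraries; circles are replicate 1, squares replicate 2, blue control, orange cadmium, and bars the group means. miR-27b lies between 2994 and 3312 in controls and between 1701 and 1966 with cadmium, while miR-24 lies between 62.9 and 70.9 in controls and between 142 and 145 with cadmium.

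miR-27b, by far the most abundant member, fell in cadmium blood, while its sister miR-27a, of the same seed, showed no difference that passed the test. miR-27b ranked 33 of 276 loci by mean CPM. Its level was 3312 and 2994 CPM in controls 1 and 2, and 1966 and 1701 CPM in cadmium libraries 1 and 2, on 104090, 67166, 31808 and 28917 reads. Both cadmium libraries lay below both controls. The group means were 3153 ± 225 and 1834 ± 187 CPM (SD, n = 2 each), a 1.72-fold lower level with a log2 fold change of -0.78 ± 0.14 (SE; edgeR adjusted p = 0.00938). Relative to the median of all loci it stood at -0.86 to -0.89 under the 5 scalings tried. The call was lost without cadmium 1 (-0.89, edgeR adjusted p = 0.169) and without cadmium 2 (-0.68, edgeR adjusted p = 0.249), fits in which 8 and 9 of all loci passed. In bulk blood, fewer cells of a type and less of the miRNA per cell cannot be told apart.

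The erythroid and lymphocyte marker miRNAs that were tested were lower in the same libraries. They are few and do not stand for all miRNAs of these cells, whose part in the miR-27b result was not tested. Of 4 erythroid marker names 2 were tested, miR-486 and miR-144, and both passed as lower, against 6.52% of all loci. miR-486 did not pass with upper quartile factors, and was not in the fit without loci over 10% of the counts. miR-144 did not pass in 8 of 14 alternatives, among them those without either cadmium library. The level summed over both was 258776 to 279737 CPM in control and 172101 to 183915 CPM in cadmium blood. All 5 lymphocyte marker loci were lower, and 2 passed, the copies of miR-181a (against 6.52% of all loci). Their call was lost with total counts and without either cadmium library. miR-150 (-0.55) and the copies of miR-181b (-0.78) did not pass. The list's 3 distinct sequences summed to 3299 to 4401 CPM in control and 2220 to 2222 CPM in cadmium blood. The tested myeloid marker miR-142 had 5510 to 5963 CPM without and 5060 to 5908 CPM with cadmium, and the summed level of the platelet and endothelial markers was 191 to 256 CPM and 190.5 to 212 CPM. The liver markers were not in the test, and the muscle marker miR-133a had 13.1 to 34.2 CPM without and 41.1 to 43.0 CPM with cadmium. Other names in these lists, such as miR-223 and miR-451, are not analysed here.

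miR-27a had 240.0 and 182 CPM in controls 1 and 2, and 239 and 209 CPM in cadmium libraries 1 and 2. Its groups overlapped. The means were 211 ± 41.2 and 224 ± 20.8 CPM (SD, n = 2 each), with a log2 fold change of 0.09 ± 0.20 (SE; edgeR adjusted p = 0.761). The sign of that value was negative with DESeq2 size factors, and it stood at -0.02 to 0.02 relative to the median of all loci under the 5 scalings. Without control 1, the control with the higher level, the fold change was 0.30 and passed (edgeR adjusted p = 0.0143), in a fit where 105 of all loci passed. Without control 2 it was -0.10 (edgeR adjusted p = 0.458).

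Because miR-27a and miR-27b reads come from the same library, their ratio is free of depth and scaling. It rests on reads being told apart by C19U alone, and how they were assigned is not given in the sources used here. For each miR-27a read, control 1 had 13.8 reads of miR-27b and control 2 had 16.5, whereas cadmium 1 had 8.23 and cadmium 2 had 8.12. The cadmium libraries were close to each other and lay below both controls. miR-27a made up 6.76% of the miR-27 reads in control 1 (95% Wilson interval 6.61% to 6.91%) and 5.72% in control 2 (5.55% to 5.89%). In cadmium libraries 1 and 2 its share was 10.8% (10.5% to 11.2%) and 10.96% (10.6% to 11.3%). These intervals treat reads as independent and leave out the spread between libraries. Reads without molecular identifiers are not independent molecules, so the intervals may be too narrow even for counting error. The mean share was 6.24% ± 0.732 (SD, n = 2) without cadmium and 10.9% ± 0.0899 (SD, n = 2) with it. The log2 ratio of miR-27a to miR-27b averaged -3.91 ± 0.18 without and -3.03 ± 0.01 with cadmium, a difference of 0.88. The exact two-sided permutation test gave p = 0.333, the smallest that 2 against 2 libraries allow, so this design cannot pass the threshold. The difference lay between 0.76 and 1.01 when each library was left out in turn. The summed level of both sisters, which share the seed, averaged 3364 ± 266 CPM in the control pair and 2058 ± 208 CPM in the cadmium pair (SD, n = 2 each).

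**Figure D3:**
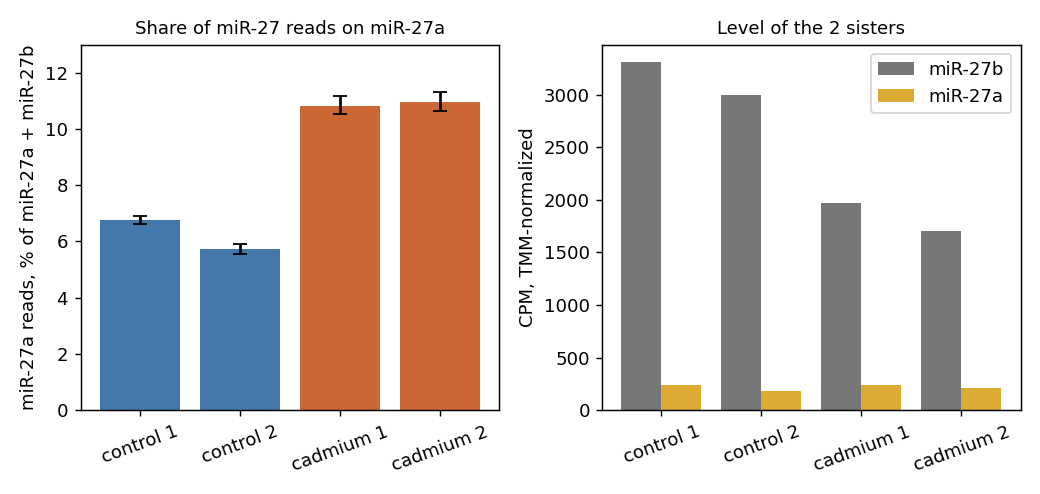
Left, miR-27a reads as a percentage of miR-27a plus miR-27b reads in each library, with 95% Wilson intervals as error bars; right, CPM of miR-27b (grey) and miR-27a (yellow) in each library. The share is 5.72% and 6.76% in controls and 10.8% and 10.96% with cadmium, beside a lower miR-27b bar.

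A nearby seed is carried by miR-128, a miRNA best known from brain, whose sequence starts with the letters of the miR-27 seed 1 base earlier. It is shown for that comparison, with those letters in capitals, as listed in control 1.
miR-128-1: UCACAGUgaaccggucucu
miR-128-1 averaged 188 CPM without and 187 CPM with cadmium, a log2 fold change of -0.01 ± 0.22 (SE, n = 2 each; edgeR adjusted p = 0.971), whose sign changed with scaling. The window of miR-128-1 was 1 base longer in cadmium 2 than in the other libraries.

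miR-24, listed for both of its genes, was the only member miRNA that passed the test as higher in cadmium blood. It had 62.9 and 70.9 CPM in controls 1 and 2, and 142 and 145 CPM in cadmium libraries 1 and 2, on 1976, 1590, 2291 and 2468 reads. Cadmium libraries had more miR-24 reads than the controls even before scaling, in spite of their lower depth. The means were 66.9 ± 5.66 and 143 ± 2.54 CPM (SD, n = 2 each), a 2.14-fold higher level and a log2 fold change of 1.10 ± 0.20 (SE; edgeR adjusted p = 0.00979). Relative to the median of all loci it stood at 0.998 to 1.02 under the 5 scalings. The call was lost without cadmium 1 (1.12, edgeR adjusted p = 0.211) and without cadmium 2 (1.08, edgeR adjusted p = 0.215). The a and b clusters encode the same mature miR-24, so the rise cannot be assigned to either.

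The lists give a strand for each locus, and the one opposite miR-24 carries its own annotated hairpins, mmu-mir-3074-1 and mmu-mir-3074-2, which also share their reads. The counted sequence is the reverse complement of the first 21 of the 22 bases of miR-24. Capitals mark the seed as read from the counted window. The mature miR-3074 of RefSeq starts 1 base later, so its seed is UUCCUGC.
miR-3074, both genes: uGUUCCUGcugaacugagcca
miR-3074 had 39.7 and 27.2 CPM in controls 1 and 2, and 23.6 and 20.8 CPM in cadmium libraries 1 and 2. Its log2 fold change was -0.59 ± 0.26 (SE, n = 2 each; edgeR adjusted p = 0.178), which did not pass the test. Without control 1 it was -0.29 (edgeR adjusted p = 0.161) and without control 2 it was -0.84 (edgeR adjusted p = 1.05e-06), fits in which 105 and 122 of all loci passed. For each miR-3074 read there were 1.59 and 2.61 miR-24 reads in the controls against 5.997 and 6.99 with cadmium, so the groups did not overlap.

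For miR-23 the lists allow a reading at the 18-base window only. miR-23b, counted on the same 18 bases in every library, had 32.6 and 35.2 CPM in controls 1 and 2, and 46.1 and 38.7 CPM in cadmium libraries 1 and 2. Cadmium values lay above control values, but the log2 fold change of 0.32 ± 0.22 (SE, n = 2 each) did not pass (edgeR adjusted p = 0.353). It passed without control 2 (0.38, edgeR adjusted p = 0.0341), where 122 of all loci passed, and not without control 1 (0.27, edgeR adjusted p = 0.162). miR-23a had 975 reads in control 1, 752 in control 2 and 700 in cadmium 1, and miR-23b had 1023, 790 and 746. The sisters thus differed by 48, 38 and 46 reads, or 4.69%, 4.81% and 6.17% of the miR-23b count, in the 3 libraries where both were listed on the same 18 letters. Of 261 pairs of annotated loci with the same listed sequence in control 1, 242 had equal counts and the miR-23 pair was among the 19 that did not.

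In cadmium 2 the miR-23a window was 21 bases long, and 2025 reads were listed against 657 for miR-23b. Both hairpins are shown with the window counted in that library in capitals.
mir-23a hairpin, cadmium 2: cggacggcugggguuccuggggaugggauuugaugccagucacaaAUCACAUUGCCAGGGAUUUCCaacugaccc
mir-23b hairpin, cadmium 2: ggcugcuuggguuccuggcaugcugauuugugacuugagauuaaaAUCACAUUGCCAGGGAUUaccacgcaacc
miR-23a therefore stood at 31.0 and 33.5 CPM in controls, 43.3 CPM in cadmium 1 and 119 CPM in cadmium 2. Its log2 fold change of 1.33 ± 0.43 (SE, n = 2 each; edgeR adjusted p = 0.0730) sets different windows against each other. Without cadmium 2, where the windows of all libraries are the same, it was 0.42, close to the 0.44 of miR-23b in the same fit. Both sisters are counted on the same letters there, so this closeness cannot show whether they change alike. The log2 ratio of miR-23a to miR-23b was -0.07 in each control, -0.09 in cadmium 1 and 1.62 in cadmium 2. The mean difference of 0.84 (exact two-sided permutation p = 1.0) turned to -0.02 over the libraries with matching windows, where both are counted on the same letters. Of the sisters, only those of miR-27 can thus be told apart by listed sequence in every library. Their ratio compares mature miRNAs and not whole clusters.

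**Figure D4:**
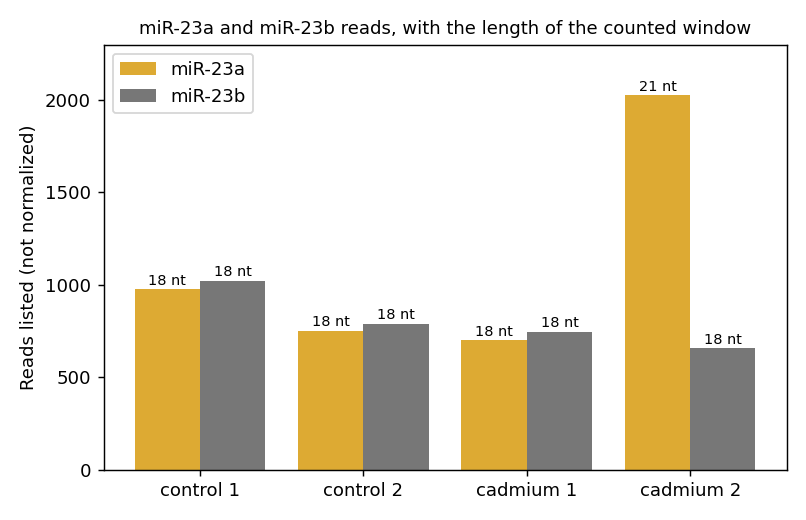
Reads listed for miR-23a (yellow) and miR-23b (grey) in each library, not normalized, with the length of the counted window in nucleotides above each bar. The sisters are within 48 reads of each other where both windows have 18 nucleotides, and miR-23a has 2025 reads where its window has 21.

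Ratios of reads between members of the same cluster were compared in each library, 3 ratios per cluster. In the b cluster there were 102 and 85.0 miR-27b reads for each miR-23b read in controls 1 and 2, against 42.6 and 44.0 in cadmium libraries 1 and 2. For each miR-24 read there were 52.7 and 42.2 miR-27b reads in controls, and 13.9 and 11.7 with cadmium. In the a cluster there were 3.82 and 2.56 miR-27a reads for each miR-24 read in controls, and 1.69 and 1.44 with cadmium. In these 3 ratios both cadmium libraries lay below both controls. The ratios share counts of miR-27b and miR-24, so they are not separate observations. Among single loci, 69.9% had groups that did not overlap. For each miR-23b read there were 1.93 and 2.01 miR-24 reads in controls and 3.07 and 3.76 with cadmium, so this ratio was higher with cadmium in both libraries. The 2 ratios to miR-23a overlapped between the groups. For each miR-23a read there were 7.74 and 5.42 miR-27a reads in controls against 5.52 and 1.76 with cadmium, and 2.03 and 2.11 miR-24 reads against 3.27 and 1.22, the last value of each pair resting on the longer window of cadmium 2. They are descriptions, as miR-24 reads, and miR-23 reads of 18 bases, can come from either cluster, and recovery in small RNA libraries differs between sequences.

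**Figure D5:**
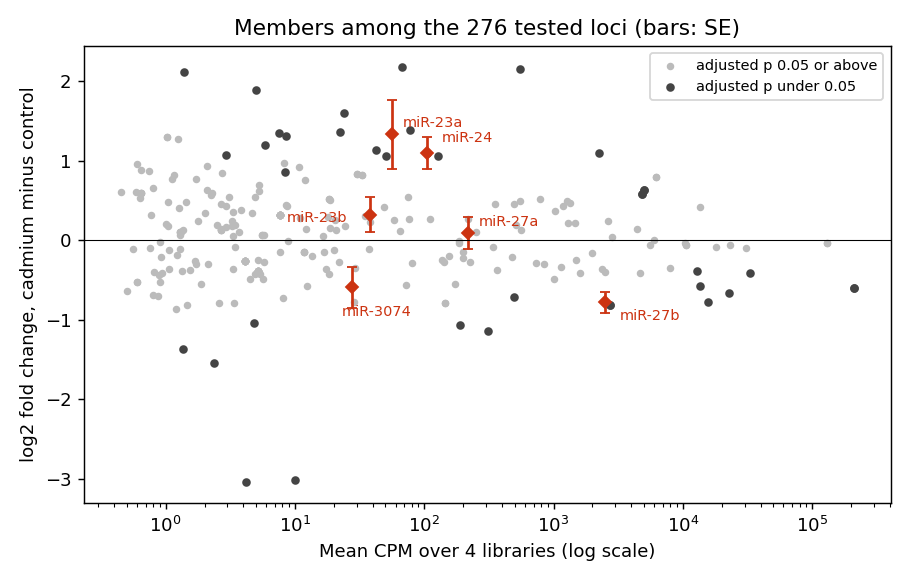
Log2 fold change, cadmium minus control, against mean CPM over the 4 libraries (log axis) for the 276 tested loci, with those past the threshold in dark grey and the members and miR-3074 as red diamonds with SE bars. miR-24 (1.10) and miR-27b (-0.78) passed on opposite sides of 0, and miR-23a (1.33) has the widest bar of those drawn.

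Patterns most like those of the members were looked for among 65 other distinct sequences with a mean of at least 100 CPM, by Euclidean distance of the 4 log2 CPM values after centring each sequence on its mean. The nearest to miR-27b were miR-30a (distance 0.25), miR-181a (0.25) and miR-486 (0.29), with log2 fold changes of -0.66, -0.81 and -0.60 that each passed the edgeR test, though miR-30a and miR-181a did not without either cadmium library, miR-30a and miR-486 with upper quartile factors, and miR-181a with total counts. The nearest to miR-24 were miR-15b (0.03), miR-652 (0.22) and miR-103 (0.47), which rose by 1.09, 1.06 and 0.63, calls that were lost without either cadmium library. That of miR-103 was also lost with DESeq2 and with a mean CPM of at least 10. The nearest to miR-27a were miR-92a (0.16), miR-425 (0.21) and miR-128 (0.21), at -0.05, 0.13 and -0.01, none past the threshold. The nearest to miR-23b were miR-1198 (0.06), miR-221 (0.13) and miR-30b (0.16), at 0.27, 0.22 and 0.36, also not past it. For miR-23a the smallest distance was 0.997, to miR-15b, followed by miR-103 (1.15) and miR-30c (1.18), and the last rose by 0.58, a call also lost without either cadmium library and with DESeq2. The distances use the same libraries and counts as the fold changes, so near neighbours tend by construction to share a member's direction of change. With 4 libraries these distances describe the profiles only.

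Other miRNAs of the processes in which the clusters are known were taken from 3 lists, whose counts of called loci stand beside 14.5% of all loci tested. Of 11 tested loci of vessel and angiogenesis miRNAs, 1 passed, miR-15b, which rose by 1.09 ± 0.13 on the log2 scale (SE, n = 2 each; edgeR adjusted p = 0.00207), and the list's median was 0.11. The most abundant, miR-92a-1 of the miR-17-92 cluster, had -0.05 ± 0.14. The call of miR-15b was lost without either cadmium library (1.12 and 1.07). Of 9 myeloid and blood-wide loci, 1 passed, miR-322, which was lower at -1.15 ± 0.27 (edgeR adjusted p = 0.0268), with a list median of -0.15, and the most abundant, miR-21a, had -0.03 ± 0.10. The miR-322 call was lost with total counts (-0.85) and without cadmium 1 (-1.07) or cadmium 2 (-1.22), and its value without control 2 was -0.68. Of 7 TGF-beta and cell-cycle loci, 1 passed, miR-195a, which rose by 1.06 ± 0.23 (edgeR adjusted p = 0.0195), with a list median of 0.16. It too lost its call without cadmium 1 (1.07) and cadmium 2 (1.05), and the most abundant member, miR-29a, had 0.19 ± 0.15. The median over all loci tested was 0.08.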

How the data were processed

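Small RNA of whole blood, isolated with the miRNeasy kit, was made into standard Illumina libraries, per the labels' protocols. Each deposited file lists loci of 1 library with its number of mature reads, per the file headers; these deposited counts are whole numbers and not normalized. The submitters' processing notes name Bowtie 0.12.2, DESeq and build mm10. How reads were assigned to a counted window is not given in the sources used here. The lists held 954, 693, 637 and 583 rows with a lowest count of 5, so an unlisted locus is not a measured 0. Identical star-named rows were merged, and an unnamed total in cadmium 1 was left out. The sequences listed for control 2 were not used, since 162 of the 693 have the length of their locus.

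edgeR 4.0.16 in R 4.3.3 (TMM, filterByExpr, quasi-likelihood F test, two-sided, group as the only term, 2 residual degrees of freedom) ran on the 277 annotated loci whose windows overlap in all 4 libraries, of which 1 was filtered. Standard errors are the absolute log2 fold change over the root of F. Alternatives were other scalings, filters, DESeq2 1.42.0, a replicate block, left-out libraries, 1 locus per sequence and only matching windows; totals without dominant loci were added after seeing the data. Sequences are from RefSeq (GRCm38.p6), where all 6 hairpins matched by symbol. Other named genes follow a written rule: those overlapping miR-24, the 3 nearest profiles of each member, and the most abundant and the called loci of each list. Members and lists were chosen with earlier results of these data known. Permutation tests used SciPy 1.17.1, figures matplotlib 3.10.9, and tables pandas 2.3.3 in Python 3.11.15.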

Additional observations from a re-analysis of the deposited data

How the results depend on the processing

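With 2 libraries per group the number of calls depends on which libraries enter. Of the 14 alternatives, miR-27b kept its call in 12 and miR-24 in 11. Of all loci, 40 were called, against 65 with total counts, 26 with a mean CPM of at least 10, 19 with the replicate block and 8 to 122 when a library was left out. The block left the miR-24 value at 1.10 without its call (edgeR adjusted p = 0.0625) and kept that of miR-27b (-0.78, edgeR adjusted p = 0.0498). It also ended the calls of miR-144, miR-181a, miR-652, miR-103, miR-30c, miR-322 and miR-195a. The labels do not say that the numbers pair libraries, and the within-group differences of same-numbered libraries correlated at 0.0954 across loci. Leaving out each library, miR-27b ranged from -0.89 to -0.68, miR-24 from 1.02 to 1.19, miR-23b from 0.19 to 0.44, miR-27a from -0.10 to 0.30 and miR-23a from 0.42 to 1.88. miR-23a passed the threshold with total counts (1.62), upper quartile factors (1.59), DESeq2 (1.25) and totals without dominant loci (1.46), and without control 1, control 2 or cadmium 1, settings that all hold the longer window of cadmium 2. miR-27a was at -0.0045 with DESeq2 size factors and -0.0025 with DESeq2. The miR-23 log2 ratio difference was -0.022 with matching windows and ranged from -0.022 to 1.69 over left-out libraries. Small values of other named loci also changed sign. miR-92a-1 was 0.25, 0.20 and 0.071 with total counts, upper quartile factors and totals without dominant loci, and ranged from -0.25 to 0.17 over left-out libraries. miR-21a was 0.27, 0.20 and 0.10 under the same 3 scalings and ranged from -0.094 to 0.034. miR-128-1 was 0.29, 0.25 and 0.12 under them, 0.016 with the replicate block, and ranged from -0.26 to 0.29. miR-425 ranged from -0.032 without cadmium 1 to 0.28. Beyond the settings named, the cause of these changes was not tested. A group reduced to 1 library is assumed to vary like the other group. The lowest counts were 28917 for miR-27b and 1590 for miR-24.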
